A study of Mus musculus with 6 samples.

Results

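The genes described here control whether a cell divides, stops or dies: the p53 family and its inhibitors, the CDK inhibitors, cyclins and CDKs, the Rb and E2F proteins, the Myc and Pim oncogenes, the BCL2 family and caspases, and the AP-1, ETS, RUNX and Akt genes. Every region of the authors' deposited table whose nearest listed gene was 1 of 58 such genes was taken, with no minimum on the difference beyond that of the table. This gave 63 of 14176 regions, next to 26 of the 58 genes. The table gives, for each region, 1 difference in percent methylation, tumor minus normal, in percentage points, together with the number of CpG cytosines measured and the number of those called differentially methylated cytosines (DMCs), which had passed minimums set by the authors for q-value, coverage and difference. It carries no value per animal, so no spread between animals and no test between the groups could be computed, and all comparisons below are descriptions of listed regions.

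Liver DNA came from male C3H/HeN mice, an inbred strain prone to spontaneous liver tumors. The normal liver group held 3 samples and the liver tumor group 3 samples, all at 74 weeks of age, and the tumors carried a Ha-ras mutation. The mice were second-generation (F2) offspring of the untreated arm of an arsenic exposure project, and the tumors were dissected as macroscopic tissue. The labels do not say whether any tumor came from the same animal as a normal liver. In such bulk tissue a change in methylation within a cell type and a change in the mix of cell types cannot be told apart.

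Cyclins and their kinases, the CDKs, drive a cell into DNA replication and mitosis, and the CDK inhibitors and the Rb proteins hold it back. The transcription factor p53 and its relative p73 halt the cycle or start apoptosis after damage, and Mdm2 degrades p53. DNA methylation at a promoter usually goes with a silent gene, whereas methylation within a gene body or far from a start site has no fixed relation to expression, and expression was not analysed here. By these known roles, 31 of the genes were set as growth-promoting, 23 as growth-limiting and 4 (Trp63, Junb, Runx1 and Runx3) as context-dependent, since they promote growth in some tissues and limit it in others. Trp73 was set as growth-limiting, although it also has shorter forms that oppose p53, so its class is less certain.

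In 10 of the 63 regions every measured cytosine was a DMC, against 7.53% of all listed regions, and these 10 held each of the 9 member regions that differed by 40 points or more. Their sequences are shown except that of Cdkn2b, which overlaps an untranslated exon. The letters are the plus strand of the reference genome GRCm38 (mm10), which is of the strain C57BL/6J and not C3H. Capitals mark the letters of CpG dinucleotides, at an end also where the other letter falls outside the listed span. The 3 losses next to Btg2 come first, then the 3 gains next to growth-limiting and growth-promoting genes of the cell cycle and of apoptosis, then the gains next to the Pim kinase genes and the loss in Cdk14.
Btg2, chr1:134082883-134083124: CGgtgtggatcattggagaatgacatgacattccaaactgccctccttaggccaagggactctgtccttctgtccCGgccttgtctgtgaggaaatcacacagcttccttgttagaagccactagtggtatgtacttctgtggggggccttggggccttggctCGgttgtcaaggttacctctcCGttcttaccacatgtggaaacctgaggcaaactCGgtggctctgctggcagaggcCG
Btg2, chr1:134067312-134067327: GgacctcccaCGgcCG
Btg2, chr1:134077507-134077566: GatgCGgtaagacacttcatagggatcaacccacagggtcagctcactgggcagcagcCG
Cdkn2a, chr4:89298038-89298121: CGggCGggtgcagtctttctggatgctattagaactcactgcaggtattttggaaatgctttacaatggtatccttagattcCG
Bik, chr15:83531684-83531893: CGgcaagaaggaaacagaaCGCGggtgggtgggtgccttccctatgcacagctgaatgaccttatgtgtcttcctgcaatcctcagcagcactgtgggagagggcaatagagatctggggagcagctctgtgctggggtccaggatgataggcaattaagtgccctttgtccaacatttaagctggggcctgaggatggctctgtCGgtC
Cdk1, chr10:69342517-69342665: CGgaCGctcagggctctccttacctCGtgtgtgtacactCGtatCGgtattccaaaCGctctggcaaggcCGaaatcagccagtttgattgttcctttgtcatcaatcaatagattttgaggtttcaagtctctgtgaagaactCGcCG
Pim1, chr17:29457855-29457970: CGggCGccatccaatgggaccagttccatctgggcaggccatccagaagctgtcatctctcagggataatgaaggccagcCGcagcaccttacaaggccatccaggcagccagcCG
Pim3, chr15:88894068-88894092: CGcctgcttctgtttctgagtacCG
Cdk14, chr5:5084762-5084793: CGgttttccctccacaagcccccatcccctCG

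Most of the 63 regions were losses of methylation in the tumors, and the losses were mostly small. Of the 63, 47 were losses and 16 gains (74.6% losses, exact 95% interval 62.1 to 84.7%), against 12059 losses among the 14176 regions of the table (85.1%). Intervals here and below are exact binomial (Clopper-Pearson) unless named otherwise, and cover counting error over regions only. The median difference was -21.8 points, against -23.9 points over the whole table, and the values ran from -59.4 points at Btg2 to 57.8 points at Pim1. Of the 63, 19 reached the study's threshold of 30 points for a differentially methylated region (DMR, 30.2% of them), against 23.5% of all listed regions. Among these 19 DMRs, 11 were losses (hypo-DMRs) and 8 gains (hyper-DMRs). Losses were thus 57.9% of the member DMRs, against 76.3% of all DMRs in the table. Over all listed regions, DMRs or not, hypo-DMRs made up 18.0% and hyper-DMRs 5.57%. The members nearest to the threshold from above were Ccnd2 at -31.4 points and Ccnd3 at -31.6 points, and from below Junb at -29.6 points and Cdk14 at -29.5 points.

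**Figure D1:**
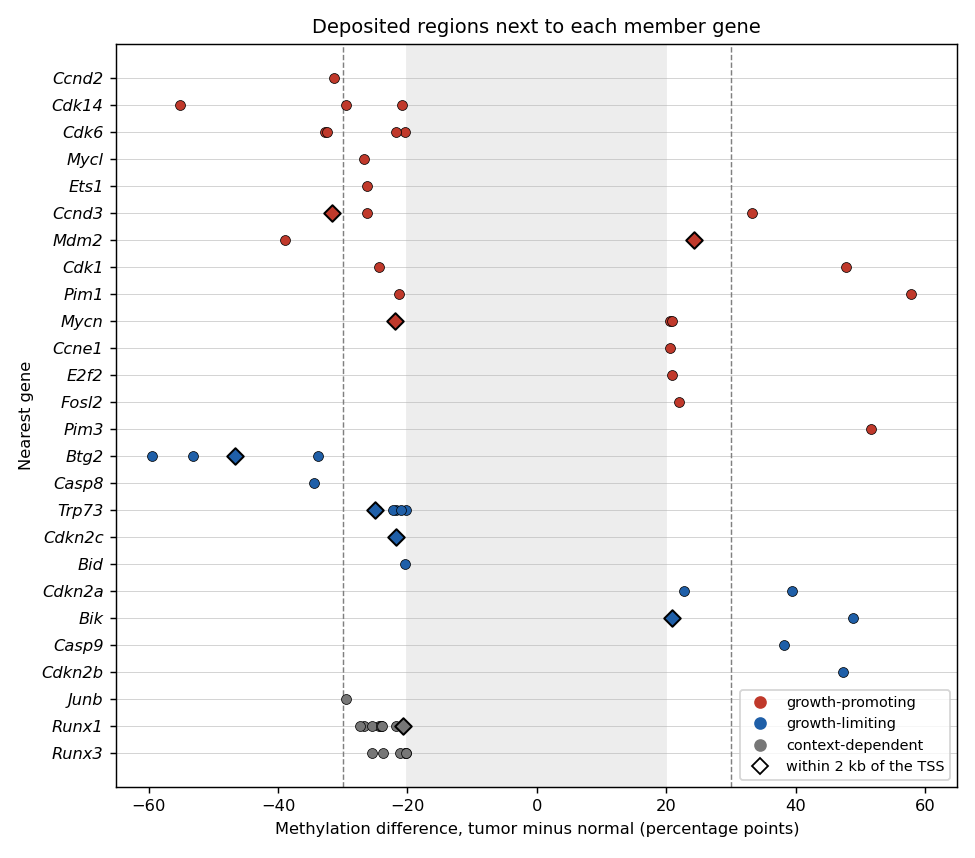
Methylation difference (tumor minus normal, percentage points) of each of the 63 deposited regions, by nearest gene, with growth-promoting genes in red, growth-limiting genes in blue and context-dependent genes in grey. Diamonds lie within 2 kb of the listed TSS, dashed lines mark 30 points, and the grey band holds no values because the table lists none there. All 4 Btg2 regions are to the left, at -33.8 points or lower, and all 3 regions of Cdkn2a and Cdkn2b are to the right.

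Both growth-promoting and growth-limiting genes had losses and gains, and the order of their shares of losses depended on the regions and genes counted. Of the 26 regions next to 14 growth-promoting genes, 16 were losses (61.5%, interval 40.6 to 79.8%), and of the 20 next to 9 growth-limiting genes, 14 (70.0%, interval 45.7 to 88.1%). The growth-promoting share was thus -8.46 points from the growth-limiting share, with a Newcombe interval of -33.0 to 18.7 points. The sign of this gap turned with several choices of regions. It was 4.44 points among DMRs and, in an alternative chosen after the data were seen, 7.69 points without Trp73. With the context-dependent genes counted as growth-limiting it was -22.2 points, with an interval of -43.1 to -0.344 points that leaves out 0. Regions of 1 gene are not independent, and 16 of the 17 regions added there came from Runx1 and Runx3. The medians were -21.5 and -21.8 points. DMRs numbered 10 in the growth-promoting class, with 6 losses and 4 gains, and 9 in the growth-limiting class, with 5 losses and 4 gains. All 17 regions of the context-dependent genes were losses, against 85.1% of the table, and none of them was a DMR, against 23.5%.

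**Figure D2:**
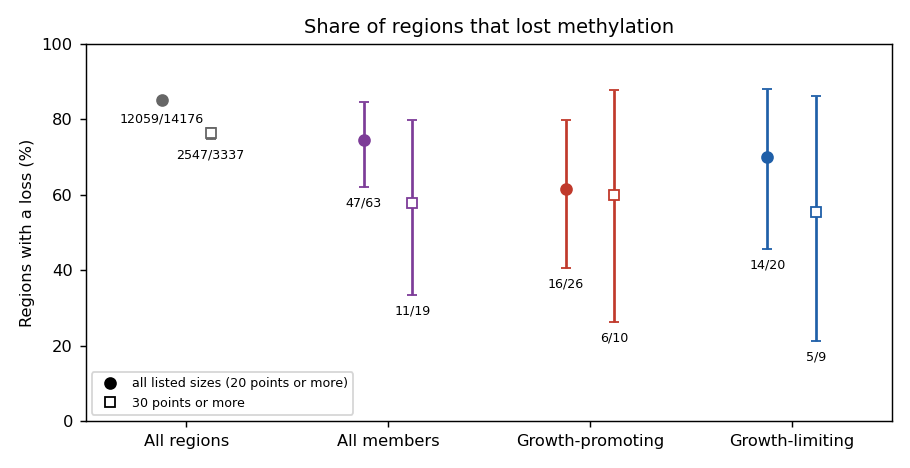
Share of regions that were losses (percent, y axis) among all listed regions, all members and the growth-promoting and growth-limiting genes, for all listed sizes (circles) and for DMRs of at least 30 points (squares), with exact 95% intervals and counts of losses over regions. The intervals of both classes overlap widely at either size, for example 16 of 26 and 14 of 20 losses over all sizes.

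Within the growth-limiting class, some genes had only losses and others only gains. All regions were losses at 5 of the 9 genes (Btg2, Trp73, Cdkn2c, Bid and Casp8) and gains at the other 4 (Cdkn2a, Cdkn2b, Bik and Casp9), with none mixed. Of the 14 growth-promoting genes, 5 had regions in both directions, 5 only losses and 4 only gains. The mixed ones were Ccnd3, Cdk1, Mdm2, Mycn and Pim1. Several genes had just 1 region, for which a mixture was not possible. In the growth-limiting class these were Cdkn2b, Cdkn2c, Bid, Casp8 and Casp9, which are most of its genes. Just Btg2, Trp73, Cdkn2a and Bik could thus have been mixed. The share of genes with 1 direction over the whole table, where 85.1% of regions were losses, was not counted.

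Btg2 encodes an antiproliferative protein that is induced by p53 and lowers cyclin D1. It is also on the study's own shortlist of genes, which was chosen on these samples, so its direction is not independent evidence. Its 4 regions, over 20.4 kb of chromosome 1, were all hypo-DMRs. The loss farthest upstream, of -59.4 points, was the largest among the 63 regions and lay 3729 bp before the TSS outside any annotated gene, with DMCs at 10 of 10 cytosines. The region nearest to the TSS lay 1588 bp downstream in a coding exon, on chromosome 1 from 134077507 to 134077566, and stood at -46.6 points with DMCs at 3 of 3 cytosines. Beyond the gene, a region of 16 bp that began 11827 bp downstream stood at -53.1 points with 3 of 3 DMCs. The fourth began 15055 bp downstream, spanned 1418 bp, overlapped a CpG island as defined here from sequence, and stood at -33.8 points. With 76 measured cytosines, 49 of them DMCs, it had the most cytosines of all member regions. The narrow regions carry just 3 cytosines each, so their values rest on fewer measurements than that of the island region.

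Cdkn2a and Cdkn2b stood on the opposite side. They lie next to each other on chromosome 4 and encode p16Ink4a, p19Arf and p15Ink4b, which block CDK4 and CDK6 or, for p19Arf, stabilise p53, and the locus is often deleted or silenced in cancers. Its 3 regions, spread over 32.4 kb, were all gains. The Cdkn2b region lay from 89306809 to 89307094 in the coding exon and 3' UTR, 3937 bp downstream of the TSS, at 47.3 points with DMCs at 8 of 8 cytosines. The Cdkn2a region shown above lay 3420 bp upstream of the p19Arf start, within an intron of the non-coding gene Gm12610, at 39.4 points with 4 of 4 DMCs. The third, from 89274730 to 89275131 over a coding exon, intron and 3' UTR of Cdkn2a, stood at 22.7 points with DMCs at 9 of 20 cytosines, below the threshold of a DMR. None of the 3 lay within 2 kb of a listed TSS. Cdkn2c, which encodes the related inhibitor p18Ink4c, had a loss of -21.8 points in an intron 860 bp downstream of its TSS, with DMCs at 1 of 3 cytosines.

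**Figure D3:**
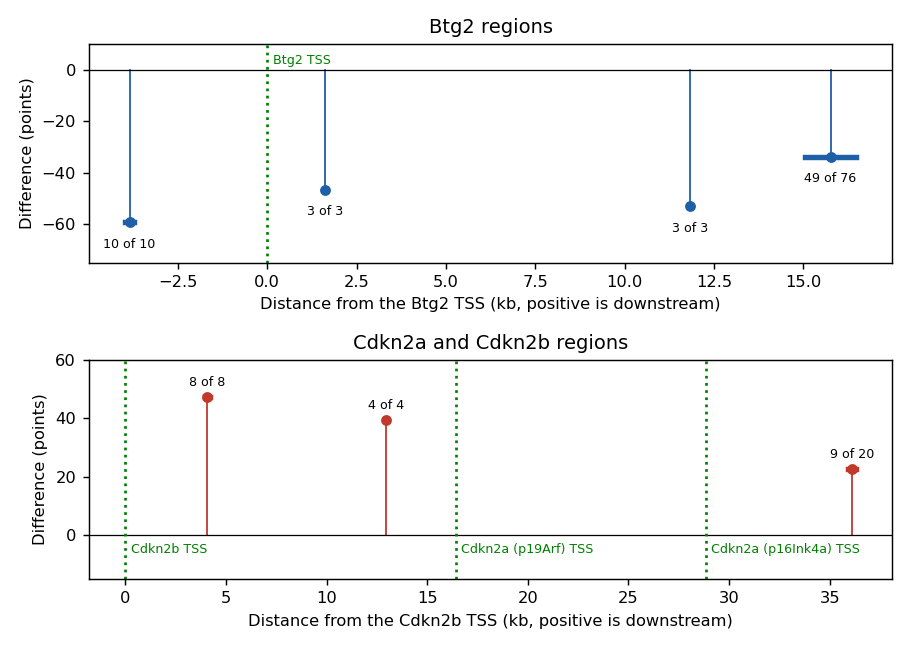
Difference (percentage points, y axis) of the regions next to Btg2 (top) and next to Cdkn2a and Cdkn2b (bottom) against the distance from the TSS of Btg2 and of Cdkn2b (kb, positive is downstream). Points mark region centres, thick bars their spans, numbers the DMCs of the measured cytosines and dotted lines the listed TSSs. The 4 Btg2 regions lie between -59.4 and -33.8 points on both sides of the TSS, and the Cdkn2 regions between 22.7 and 47.3 points downstream of the Cdkn2b TSS.

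Trp73, which encodes the p53 relative p73 in a full-length form and in shorter forms from an inner start that oppose p53, had the most regions of the growth-limiting class. Its 7 regions lay in introns over 35.8 kb of chromosome 4. All were losses, in a narrow range from -25.0 to -20.3 points, and none was a DMR. The region within 2 kb lay 1471 bp upstream of the inner start, at -25.0 points with DMCs at 3 of 6 cytosines. Over the 7 regions, 20 of 43 cytosines (46.5%) were DMCs, against 45.4% over all listed regions under 30 points. Over the Btg2 regions, all of them DMRs, 65 of 92 cytosines (70.7%) were DMCs, against 79.1% over all DMRs of the table. Trp53 had no region of its own, and the listed region closest to it lay 1.24 kb away at -21.7 points, assigned to the neighbouring Wrap53. No region was assigned to Trp63.

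Mdm2, whose product marks p53 for degradation, had 1 region in each direction. The region nearest to its TSS, 819 bp upstream, was a gain of 24.3 points with DMCs at 2 of 4 cytosines, and 68.4% of it was repeat sequence. The other, 34129 bp downstream in an intron of the neighbouring gene Cpm on chromosome 10 from 117676129 to 117676628, stood at -38.9 points with 15 of 19 DMCs. The Mdm4 gene had no region, and the nearest was 102 kb away.

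Regions next to the cyclins and CDKs were losses in 11 of 14 (78.6%), against 85.1% of all listed regions. Cdk6, the kinase partner of the D cyclins, had 4 losses over 214 kb of chromosome 5. The 2 in its introns were hypo-DMRs, at -32.8 points with DMCs at 15 of 18 cytosines and at -32.5 points with 5 of 8, and the 2 upstream of the gene stood at -21.8 and -20.4 points. Cdk14, a kinase that pairs with cyclin Y, had 3 losses inside the gene and more than 100 kb from the TSS. The largest of them, at -55.2 points, came from just 2 CpG dinucleotides in the 32 bp shown above, 71.9% of them repeat sequence. The other Cdk14 regions stood at -29.5 and -20.8 points.

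Cdk1, the kinase that drives mitosis, carried the gain with the most DMCs. The region covered part of a coding exon and intron, 10246 bp downstream of the TSS, and stood at 47.7 points with DMCs at 16 of 16 cytosines. A loss of -24.3 points with DMCs at 1 of 4 cytosines lay 57900 bp downstream of the same TSS, outside the gene. A gain inside the gene and a loss beyond it thus share this nearest TSS.

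The D cyclins start the cycle in response to growth signals. Ccnd3 had a hypo-DMR in its intron 1841 bp downstream of the TSS, on chromosome 17 from 47595307 to 47595820, at -31.6 points with DMCs at 15 of 19 cytosines. A hyper-DMR of 33.3 points (3 of 4 DMCs) and a loss of -26.2 points (3 of 5) lay 30359 and 42188 bp upstream of that listed TSS, within an intron of a longer Ccnd3 transcript. Ccnd2 had a hypo-DMR of -31.4 points with 3 of 4 DMCs, 16118 bp upstream in an intron of 9330179D12Rik. Ccne1, the cyclin of the step into DNA replication, had a gain of 20.6 points with 2 of 9 DMCs.

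Some regions inside a member gene were assigned to another gene because its TSS was nearer. There were 7 of these in 5 genes, and they are not among the 63. Both regions in Ccnd1, the cyclin D1 gene, were listed under Mir3962 and were gains, of 34.7 points with DMCs at 6 of 7 cytosines and of 30.4 points with 7 of 12, each over a coding exon and intron. Both regions in an intron of Btg3, a relative of Btg2, were losses listed under Gm7334, at -30.4 and -28.8 points. The others were a loss in Ccnd2 (-28.5 points), a loss in Trp73 (-25.1 points) and a gain in the 3' UTR of E2f2 (28.8 points).

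The Myc network and the Pim kinases, which cooperate in lymphoma models in mice, had gains at 4 of 7 regions, against 14.9% of all listed regions. Both hyper-DMRs belonged to the Pim genes. The Pim1 region, the largest gain of the 63 at 57.8 points with DMCs at 7 of 7 cytosines, lay 33074 bp upstream of the TSS in an intron of the non-coding gene Gm26885. The Pim3 region, at 51.7 points with 3 of 3 DMCs, lay 31875 bp downstream, and all of its 25 bases were repeat sequence with 2 CpG dinucleotides. A further Pim1 region, 28835 bp downstream, stood at -21.3 points with 3 of 8 DMCs.

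Mycn had the second most cytosines of all member regions in its own body. This region, on chromosome 12 from 12939492 to 12940365, overlapped an island, covered a coding exon and intron 1470 bp downstream of the TSS, and stood at -22.0 points with DMCs at 18 of 49 cytosines. Gains of 20.6 and 20.8 points lay 130456 and 100786 bp downstream of the same TSS. Mycl had a loss of -26.8 points in an intron with 2 of 3 DMCs. Myc itself had no region, and the closest listed one was 160 kb away.

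Of the Rb and E2F genes, just E2f2, an activator of genes for DNA replication, had a region, a gain of 20.8 points in an intron with DMCs at 1 of 3 cytosines. Rb1, Rbl1, Rbl2, E2f1, E2f3, E2f7 and E2f8 had none. The region nearest to Rb1 stood at 36.6 points, 17.2 kb from the gene, and was assigned to Mir687.

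The apoptosis genes had 5 regions, 3 gains and 2 losses, against 14.9% gains among all listed regions. All 5 lay next to genes that promote cell death, and 2 of the 3 gains were next to Bik alone. Bik, a BH3-only protein that sets off apoptosis, had gains at both of its regions. In the intron region shown above, 4823 bp downstream, the gain was 48.9 points with DMCs at 4 of 4 cytosines, and 1060 bp upstream of the TSS it was 20.9 points with 2 of 11. Casp9, the caspase of the mitochondrial pathway, had a hyper-DMR of 38.2 points in an intron, with 5 of 6 DMCs and 92.2% of the region in repeats. Casp8, the caspase of the death receptors, had a hypo-DMR of -34.4 points with 2 of 3 DMCs, 57492 bp downstream of the TSS. Bid, which links both pathways, had a loss of -20.3 points in an intron with 3 of 7 DMCs. The survival genes Bcl2, Bcl2l1 and Mcl1 had no region, nor had Bax, Bcl2l11 and Fas.

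The RUNX genes carried many small losses. Runx1, a transcription factor of blood cell development, had 10 regions over 432 kb of chromosome 16, the most of any member, from -27.3 to -20.7 points. All but 1 lay inside the gene, and the region within 2 kb of a TSS, 927 bp downstream of the distal start, stood at -20.7 points with DMCs at 1 of 4 cytosines. Runx3, a relative active in lymphocytes and nerve cells, had 6 losses over 121 kb of chromosome 4, from -25.5 to -20.2 points. The widest of these held 23 measured cytosines, the third most of the member regions, with 7 DMCs. None of these regions was a DMR. Over both genes, 52 of 121 cytosines (43.0%) were DMCs, against 45.4% over all listed regions under 30 points. Of the AP-1 and ETS genes, Junb had a loss of -29.6 points 3288 bp upstream with 7 of 11 DMCs, Ets1 a loss of -26.3 points 284 kb downstream, and Fosl2 a gain of 22.0 points in an intron with 1 of 8 DMCs.

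Near the TSS, no member region went beyond -31.6 points except at Btg2. Of the 63 regions, 8 lay within 2000 bp of the listed TSS (12.7%, against 6.17% of the table), each next to a different gene. The losses were at Btg2, Ccnd3, Trp73, Mycn, Cdkn2c and Runx1, and the gains at Mdm2 and Bik. The Btg2 and Ccnd3 regions were DMRs, 2 of the 8, against 225 of all 875 listed regions within 2000 bp (25.7%). Losses were 6 of the 8, against 583 of those 875 (66.6%). Member regions lay nearer to their TSS than the table as a whole, with a median of 18505 bp against 47576 bp, and growth-limiting genes (6025.5 bp) nearer than growth-promoting genes (33601.5 bp). Over the whole table losses made up 69.5% of regions within 5 kb and 96.4% of those beyond 100 kb. Among the members they made up 10 of 18 within 5 kb and 6 of 8 beyond 100 kb.

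**Figure D4:**
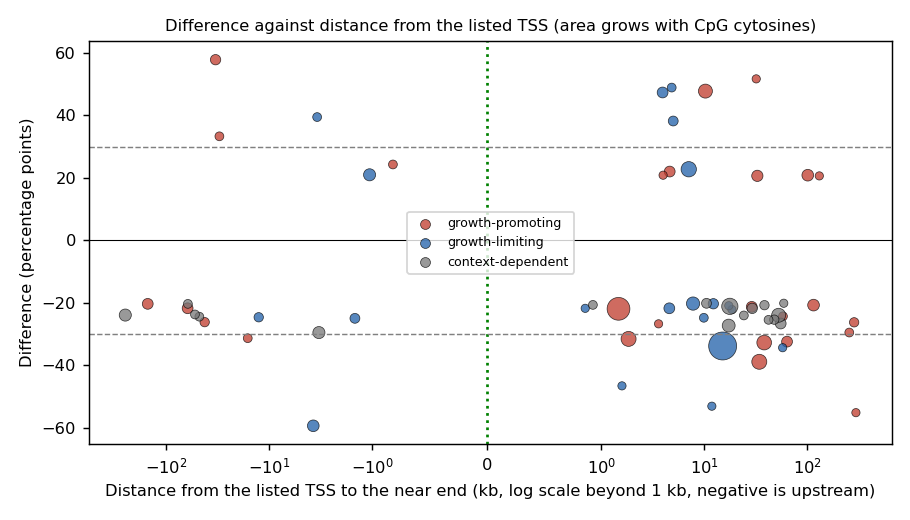
Difference (percentage points, y axis) of the 63 regions against the distance of their near end from the listed TSS (kb, x axis, logarithmic beyond 1 kb on either side, negative is upstream). Colours mark the classes and the area of a point grows with the number of measured CpG cytosines. The large blue point at -33.8 points is the island region beyond Btg2, with 76 cytosines, and the large red one at -22.0 points is the region in Mycn, with 49.

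The 63 regions were more often inside the gene they were listed for than the table as a whole. This was so for 39 of them (61.9%), against 29.7% of all regions, while 4 lay in another gene and 20 in none. Of the growth-limiting regions, 14 of 20 lay in the listed gene, and of the growth-promoting ones 13 of 26. By the sequence definition, 8 regions overlapped CpG islands (12.7%, against 9.21% of the table) and 16 lay in shores. The split in islands was 4 losses and 4 gains, against 64.2% losses over all island regions. Repeats covered at least 50% of 6 member regions (9.52%), against 27.3% of all.

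Motifs bound by member proteins, none of which contains another, were counted in windows of 300 bp centred on each region, on both strands. The E-box CACGTG, the site of Myc and Max, was in 3 of the 63 windows (4.76%), at Ccnd3, Pim1 and Trp73, against 5.13% of all windows. The AP-1 site TGACTCA was in 7 (11.1%), against 5.51% of all. These were windows at Btg2, Casp8, Bik, Trp73, the larger Mdm2 region and regions of Cdk14. The E2F site TTTGGCGC was in none, and in 0.162% of all windows. A match says just that these letters are in the window.

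Apart from the p53 target genes, the other genes of these pathways, in lists written from textbook roles, had regions that were mostly losses. This was also so over the whole table (85.1% losses, median -23.9 points, 23.5% DMRs). Of 36 regions next to 11 of 32 other oncogenes, 33 were losses and 7 were DMRs (median -22.5 points), among them Bcl6, a gain in a coding exon, at 38.4 points. Of 21 regions next to 8 of 24 other tumor suppressor genes, 18 were losses and 9 were DMRs (median -24.6 points). Among the DMRs were Cdh1, the E-cadherin gene, at -42.5 points in an intron, and Wwox in introns at -44.5, 37.4 and 40.2 points. All 10 regions next to 4 of 31 genes of mitosis and DNA replication were losses (median -26.4 points), down to -44.5 points at Mad2l1, a spindle checkpoint gene, and 4 were DMRs. Regions next to other apoptosis genes were losses in 10 of 12 (median -21.8 points). The 3 DMRs among them were the gains at Bok (35.4 points) and Tnfsf10 (39.9 points) and a loss at Hrk (-33.4 points), all genes that promote cell death. Of 22 p53 target genes 8 had 1 region each, 4 losses and 4 gains from -29.1 to 29.2 points, none of them a DMR. Without regard to sign, their median difference was 21.2 points, against 25.2 points over the whole table. Of 20 genes of the DNA damage checkpoint, Hus1 alone had a region, at -20.3 points.

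Regions next to markers of endothelial cells, of stellate cells and fibroblasts and of cholangiocytes were also mostly losses, as was the table. They were losses in 12 of 12 regions for endothelial cells, among them Pecam1 at -30.6 points, in 8 of 9 for stellate cells and fibroblasts and in 4 of 4 for cholangiocytes. Losses were fewer next to markers of leukocytes (1 of 2) and of hepatocytes (3 of 5), against 85.1% of the table. The leukocyte markers Ptprc, Cd3e and Adgre1 and the hepatocyte markers Alb, Ttr and Hnf4a had no region. The part of cell mixture in the differences at the member genes was not tested.

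Finally, 32 of the 58 genes had no region, 17 of them growth-promoting, 14 growth-limiting and 1 context-dependent. The gap from the gene to the closest listed region had a median of 65.7 kb and was at most 925 kb, at Jun. It was within 50 kb for 14 genes and over 100 kb for 13. Cdkn1a, the p53-induced CDK inhibitor gene, had the closest region 29.8 kb away, a gain of 40.9 points assigned to Trp53cor1. Akt1, a survival kinase gene, had the closest one 48.6 kb away at -45.1 points, assigned to Adssl1. The sites that were measured without being listed are not known here, so the absence of a region does not show that methylation at these genes was alike in both groups.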

How the data were processed

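RRBS (bisulfite sequencing of MspI fragments) was applied to liver DNA of 3 normal livers and 3 liver tumors. The authors trimmed reads with Trim Galore, aligned pairs to mm10 with Bismark, keeping unique best hits, counted C and T reads per CpG cytosine and strand with methylKit, called DMCs by logistic regression, built regions with eDMR and found the nearest RefSeq TSS with bedtools 2.25.0 (a version from the submitters' processing notes). No source used here states other versions. The deposited difference is a signed score in percentage points, tumor minus normal, the mean over the region's CpG cytosines. The listed regions had at least 20.0 points, 3 CpG cytosines and 1 DMC. Cytosines of both strands counted apart. Read depth per region is not known here. The columns of this table are the authors' own contrast, and just these values were available for description.

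Starts were counted from 0, so 1 was added, after which 100% of starts and ends lay in a CpG of GRCm38. Features came from RefSeq transcripts of GRCm38.p6, and the side of the TSS from the strand. The listed TSS was a RefSeq start for 52 of the 63 regions. An island needed 50% GC and an observed to expected CpG ratio of 0.6 in 200 bp windows and a merged length of 300 bp or more, and a shore was the next 2000 bp. Shares carry exact 95% intervals (scipy 1.17.1), and the functions were tested on simulated data. No test was made, because the table has no value per sample and regions next to 1 gene are not replicates. The members, classes and lists were chosen with earlier results of these data known. Described in full were member regions of at least 30 points, those within 2000 bp of the TSS, the 3 genes with the most regions, the extremes, and the 3 regions with the most cytosines. Of 17 regions whose sequence that rule allowed (no UTR, at most 300 bases), the 9 with every cytosine a DMC were printed, a choice made after their values were seen. Alternatives changed the minimum difference, cytosines and DMCs, the distance, the repeat filter, the assignment to genes, the unit counted and the genes kept.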

Additional observations from a re-analysis of the deposited data

How the results depend on the processing

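The growth-promoting minus growth-limiting share of losses, -8.46 points, changed sign in 8 of 16 alternatives. It was 15.9 points from 25 points up, 4.44 from 30 points up, 5.11 with at least 5 CpG cytosines, 11.4 with at least 10, 3.48 with at least 2 DMCs, 0.699 without Cdk6 and Trp73 (the genes with the most regions), 6.74 with the context-dependent genes counted as growth-promoting and, an alternative chosen after the data were seen, 7.69 without Trp73. In the others it ran down to -22.2 points, with the context-dependent genes counted as growth-limiting, where alone among the alternatives the interval (-43.1 to -0.344 points) left out 0. The alternatives without Btg2 (-0.962 points) and without Cdkn2a and Cdkn2b (-20.8 points) were also chosen after the data were seen. The share of losses over all members, 74.6%, was 57.9% from 30 points up and 57.7% with genes counted, where 15 of 26 had a negative median. The median difference of -21.8 points was -27.0 from 25 points up and -31.6 from 30 points up, alternatives also chosen after the data were seen. The 19 DMRs were 9 at a minimum of 40 points, and the 8 regions near a TSS were 3 within 1000 bp and 18 within 5000 bp. Each class's own share stayed within its interval under all alternatives run.

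No paired analysis was possible because the table holds no value per sample, and leaving out a replicate could not be run for the same reason. Counts of cytosines, from 3 to 76 a region, limit the precision of a value, and the reads behind them are not known here.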
